A study of Arabidopsis thaliana with 12 samples.

Results

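The genes described here are 55 Arabidopsis thaliana loci that encode proteins of the cytosolic ribosome, taken from a list of locus identifiers that forms paralog groups. A gene was counted when an open reading frame (ORF) whose name starts with its locus stood in a deposited set of translated ORFs, and 54 of the 55 loci did, out of 18273 genes in all. The loci fall into 23 families, 10 of the small subunit with 23 genes and 13 of the large subunit with 32 genes. Of the families, 16 have 2 listed paralogs, 5 have 3 and 2 have 4. The table of gene names used here names 22 of the 55 as ribosomal proteins. Loci it does not name are given by locus, and their grouping, which follows Arabidopsis nomenclature, was not checked against sequence. The amino acid sequences were not analysed here.

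The material was shoots and roots of wild-type Arabidopsis seedlings of the Col ecotype, 4 days old and grown hydroponically with 1% sucrose at 22 °C under 16 h of light and 8 h of darkness. Both tissues were collected at ZT 3, which is 3 h after the lights came on, and each tissue had 3 ribosome profiling and 3 RNA-seq samples. In ribosome profiling, unprotected RNA is digested and the pieces left under ribosomes are sequenced, so that a count on an ORF reflects ribosomes engaged on it. The deposited tables give 1 count per ORF for shoot and 1 for root, with no value per replicate, and RNA-seq values were not analysed here. No test between tissues was therefore possible, every interval below covers counting error only, and a difference between plants of the same tissue is not included in any of them. As whole organs were used, fewer cells making a protein and fewer ribosomes per cell on its mRNA cannot be told apart. The number of plants per sample is not stated in the labels.

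The ribosome joins a small subunit, which decodes the mRNA, to a large subunit, which forms the peptide bond. Each subunit is built from ribosomal RNA and a set of proteins that is mostly present in a single copy per ribosome. Plants keep several genes for nearly every cytosolic ribosomal protein, and the paralogs can stand in for each other to a varying degree. Loss of a single copy often gives pointed leaves in Arabidopsis, and loss of others is lethal to the embryo. Plastids and mitochondria have ribosomes of their own, with separate proteins.

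The labelled tissues carried their own markers. Of 6 shoot genes, 4 were listed in shoot only and the other 2 had a share of the shoot total at least 32.2 times that of root. Of 6 root genes, 3 were listed in root only and the other 3 had a share at least 16.1 times higher in root. The gene totals, summed over the largest ORF count of each gene, were 95481490 in shoot and 113381941 in root.

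The members' counts summed to 2454886 in shoot, or 2.57% of the shoot total, and to 2875865 in root, or 2.54% of the root total. With the members listed in both tissues alone, the shares were 2.57% in shoot and 2.51% in root. Most members were among the genes with high counts per codon, which do not separate the amount of mRNA from the ribosomes on each mRNA. The median of the members was 202 counts per codon in shoot and 242 in root, against medians of 3.67 in shoot and 4.79 in root over all genes. In shoot 44 of 53 listed members, and in root 45 of 53, lay above the 90th percentile of all genes in counts per codon. Percentiles of level and shares within families are per codon, as the ORFs ran from 111 to 407 codons. Raw counts are also given for many genes, and these are not corrected for length. All 73 member ORFs in shoot and all 72 in root were annotated coding ORFs, so none was annotated as an upstream or downstream ORF.

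**Figure D1:**
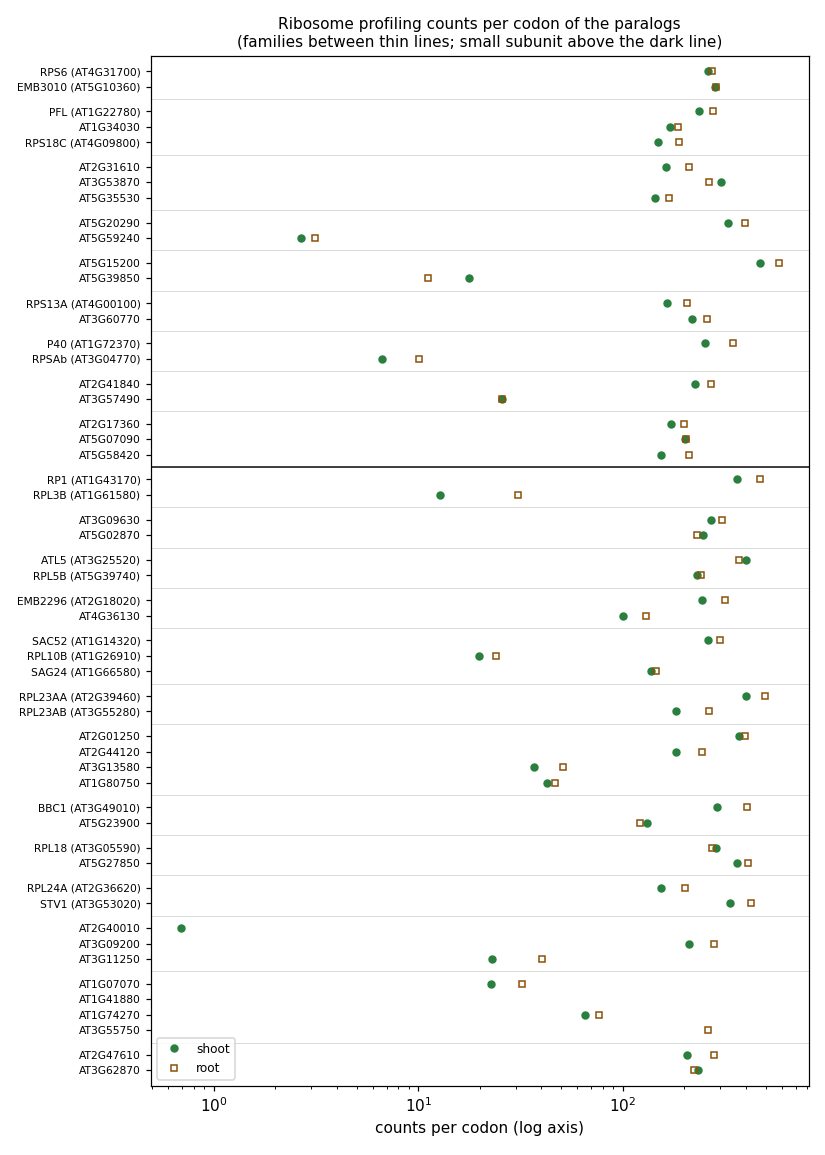
Counts per codon (log axis) of the paralogs, without 1 family that is not shown, in shoot (filled circles) and root (open squares), 1 value per tissue; thin lines separate families and the dark line separates the small subunit (above) from the large. Most paralogs lie between 100 and 578 counts per codon, while single members of several families lie far to the left, such as AT5G59240 at 2.67 in shoot and 3.12 in root.

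The first comparison asked whether each paralog took the same share of translation in shoot as in root. It is given as the log2 ratio of its share of the shoot total over its share of the root total, so that a positive value means a larger share in shoot. All 52 members listed in both tissues had an ORF with identical coordinates in the 2 sets, and this was also their ORF with the largest count. The ratios were narrow, with a median of 0.01 and quartiles of -0.14 and 0.15. The lowest was -1.02 and the highest 0.91. No member was at least 2-fold higher in shoot, where 14.8% of 11610 genes with a ratio were, and 1 member was at least 2-fold higher in root, where 24.1% were. In either direction, 1 of 52 members and 38.8% of all genes passed this limit. All genes had a median of -0.33 with quartiles of -0.97 and 0.35. Of the 52 members, 49 lay above that median, so the sign of a single member depends on the scaling. Scaled on the median gene, 49 members would lie above 0 instead of 27. Among genes of at least 10000 counts in the higher tissue, a limit chosen after the values were seen, 1 of 45 members was past 2-fold in either direction, against 50.2% of 2574 genes.

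**Figure D2:**
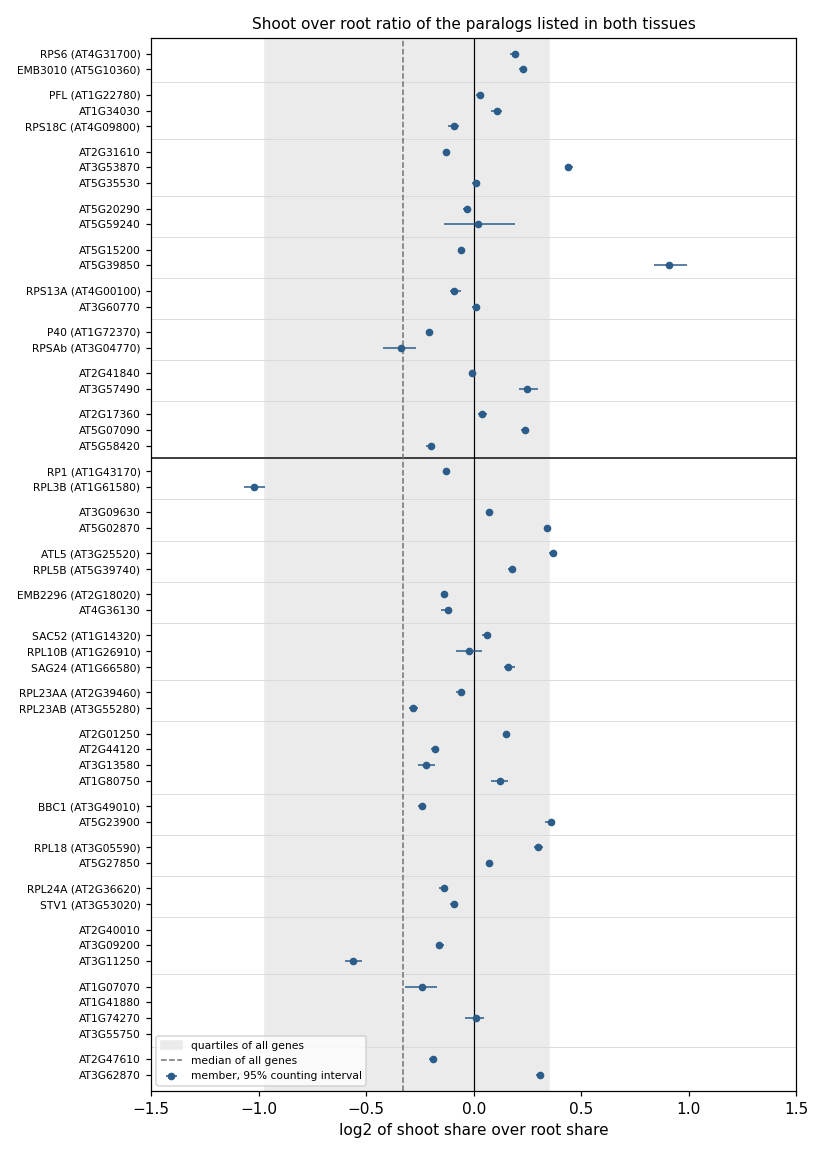
Log2 ratio of shoot share over root share for the paralogs listed in both tissues, without 1 family that is not shown, with 95% counting intervals; the grey band spans the quartiles of all genes and the dashed line is their median, -0.33. The members gather around 0, and RPL3B at -1.02 and AT5G39850 at 0.91 stand at the ends.

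Among the small subunit families, several kept their proportions. RPS6, which the TOR pathway phosphorylates through S6 kinase, was split almost evenly. RPS6B (AT5G10360, also EMB3010) had 281 counts per codon in shoot and 285 in root, beside 262 in shoot and 272 in root for RPS6A (AT4G31700). Its share of the pair was 51.8% in shoot and 51.1% in root.

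The 3 paralogs of RPS18, a protein of the head of the small subunit, also kept their order at the top. PFL (AT1G22780, RPS18A), named for the pointed first leaves of its mutant, led with 236 counts per codon in shoot and 275 in root. AT1G34030 and RPS18C (AT4G09800) had 170 and 149 in shoot and 187 and 188 in root. PFL held 42.6% of the family in shoot and 42.3% in root. In the RPS13 pair, the mutant of RPS13A (AT4G00100) gave its synonym, pointed first leaf 2. RPS13A held 43.0% of the pair in shoot and 44.6% in root, and AT3G60770 the rest.

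Other small subunit families were carried almost wholly by 1 paralog in both tissues. P40 (AT1G72370, RPSAA), the plant relative of the laminin receptor precursor and a protein of the small subunit, had 75006 counts in shoot and 102945 in root. Its paralog RPSAb (AT3G04770) had 2215 in shoot and 3340 in root, or 2.58% and 2.83% of the pair per codon. Its longest listed ORF has 332 codons, and a shorter one of 280 codons had the same count in each tissue, so that 52 codons carried no count. The shares of RPSAb use all 332 codons, at 6.67 counts per codon in shoot and 10.1 in root. Over the 280 codons its level was higher, at 7.91 in shoot and 11.9 in root. In the pair AT5G20290 and AT5G59240, the first had 72267 counts in shoot and 87680 in root. AT5G59240 had 561 in shoot and 655 in root, 0.814% of the pair in shoot and 0.784% in root. That share moved by 0.0304 percentage points between the tissues, the smallest shift of the 23 families. AT2G41840 held 89.7% of its listed pair in shoot and 91.3% in root, with AT3G57490 as the lesser copy.

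The pair AT5G15200 and AT5G39850 was also lopsided, and its lesser copy had the highest ratio of all members. AT5G15200, on chromosome 5 from 4935127 to 4936333, had 469 counts per codon in shoot and 578 in root, the highest level of any member in each tissue. AT5G39850, on chromosome 5 from 15950054 to 15951170, had 3479 counts in shoot (Poisson 95% interval 3364 to 3597) and 2193 in root (2102 to 2287). Its share of the shoot total was 1.88-fold its share of the root total, a log2 ratio of 0.91 (0.84 to 0.99). It made up 3.63% of the pair in shoot and 1.89% in root, so that AT5G15200 still held nearly all of it in both tissues.

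In the large subunit, the widest difference lay in the RPL3 pair. RPL3 reaches towards the site of peptide bond formation. RPL3A (AT1G43170, RP1), on chromosome 1 from 16266993 to 16268630, had the largest count of all members in each tissue, 141176 in shoot and 183412 in root. RPL3B (AT1G61580), on chromosome 1 from 22720836 to 22722401, had 4966 counts in shoot (4829 to 5106) and 11968 in root (11755 to 12184). Its log2 ratio was -1.02 (-1.07 to -0.97), a 2.03-fold larger share in root, and the interval spans the 2-fold limit. RPL3B was 3.39% of the pair in shoot and 6.11% in root. RPL3A lay close to equal shares, at -0.13.

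RPL5, which binds 5S ribosomal RNA, had its leading copy higher in shoot by this scaling. RPL5A (AT3G25520, ATL5) had 120433 counts in shoot and 110983 in root, a log2 ratio of 0.37 (0.35 to 0.38). RPL5B (AT5G39740) had 69340 in shoot and 72869 in root, a ratio of 0.18. The share of RPL5A was 63.5% of the pair in shoot and 60.4% in root. RPL10, a late-joining protein needed for the subunits to meet, has 3 copies here. RPL10A (AT1G14320, SAC52) held 62.5% in shoot and 63.8% in root. RPL10C (AT1G66580, SAG24), named as senescence-associated, held 32.8% in shoot and 31.1% in root. RPL10B (AT1G26910) held the remaining 4.74% in shoot and 5.12% in root.

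RPL23A stands at the mouth of the tunnel through which the new protein leaves. RPL23AA (AT2G39460) had 402 counts per codon in shoot and 498 in root, and RPL23AB (AT3G55280) had 183 in shoot and 264 in root. RPL23AB was among the 5 lowest ratios, at -0.28. RPL24 is known through STV1 (AT3G53020, RPL24B), which acts in flower patterning and in the re-initiation of translation after upstream ORFs. STV1 had 54492 counts in shoot and 69079 in root, and RPL24A (AT2G36620) had 25319 in shoot and 33137 in root. The share of STV1 was 68.4% in shoot and 67.7% in root. The RPL18 pair was shared more evenly, with RPL18 (AT3G05590) at 44.1% in shoot and 40.2% in root beside AT5G27850.

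EMB2296 (AT2G18020), named for its embryo-defective mutant, held 70.7% of its listed pair in shoot and 71.0% in root, with AT4G36130 as the other copy. AT3G09630 held 52.2% of its pair in shoot and 56.8% in root. Its partner AT5G02870 was among the 5 highest ratios at 0.34, with 100235 counts in shoot and 93941 in root.

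The second comparison asked whether the paralogs of a family traded places between the organs. This measure does not depend on how the tissues are scaled. The leading paralog was the same in shoot and root in 20 of 23 families. The largest shift of any paralog's share was under 5 percentage points in 18 families and under 2 in 10, with a median of 2.72. Where a single paralog holds nearly all of a family, shares can move by few points only, whatever the ratios. The pair AT5G15200 and AT5G39850 shifted by 1.74 points and the RPL3 pair by 2.72, although their log2 ratios lay 0.97 and 0.89 apart. After the family of AT3G55750, whose listing differs between the sets and which is described below, the largest shifts lay between 4.95 and 8.70 points.

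The largest of these was in the family of AT2G31610, AT3G53870 and AT5G35530. AT3G53870, on chromosome 3 from 19951548 to 19952781, had 75280 counts in shoot and 65753 in root. It was the only one of the 3 with more counts in shoot, and its log2 ratio of 0.44 (0.43 to 0.46) was the second highest of all members. Its share of the family was 49.8% in shoot and 41.1% in root. AT2G31610 made up 26.7% in shoot and 32.7% in root, and AT5G35530 made up 23.5% and 26.2%.

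In the pair AT2G47610 and AT3G62870 the leading copy changed. AT3G62870 had 59508 counts in shoot and 57169 in root, while AT2G47610 had 52943 in shoot and 71765 in root. AT3G62870 made up 53.0% of the pair in shoot (52.7 to 53.3) and 44.4% in root (44.2 to 44.7). Their log2 ratios were 0.31 and -0.19, while the summed counts of the pair gave 0.05. BBC1 (AT3G49010) and its listed paralog AT5G23900 also shifted in share, without a change of leader. The table of names carries a 40S synonym for BBC1, while the list places it in the large subunit. BBC1 had 59802 counts in shoot and 83931 in root, and AT5G23900 had 27172 in shoot and 25208 in root. The share of AT5G23900 was 31.2% in shoot (30.9 to 31.6) and 23.1% in root (22.8 to 23.3). Ratios were 0.36 for AT5G23900 and -0.24 for BBC1, and -0.08 for their sum. The opposite signs in these 2 pairs hold with scaling on the totals. Scaled on the median gene, the ratios were 0.69 for AT5G23900, 0.09 for BBC1, 0.64 for AT3G62870 and 0.14 for AT2G47610.

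The 3 paralogs AT2G17360, AT5G07090 and AT5G58420 lay within a narrow band of level. AT5G07090 led in shoot with 202 counts per codon against 204 in root, and AT5G58420 led in root, with 154 in shoot and 211 in root. AT5G07090 made up 38.2% of the family in shoot and 33.2% in root, AT5G58420 made up 29.2% and 34.4%, and AT2G17360 made up 32.7% and 32.5%. In the family of 4 led by AT2G01250, that gene made up 58.6% in shoot and 53.6% in root, and AT2G44120 made up 28.8% in shoot and 33.1% in root. The lesser copies were AT3G13580, at 5.85% in shoot and 6.92% in root, and AT1G80750, at 6.76% in shoot and 6.30% in root.

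**Figure D3:**
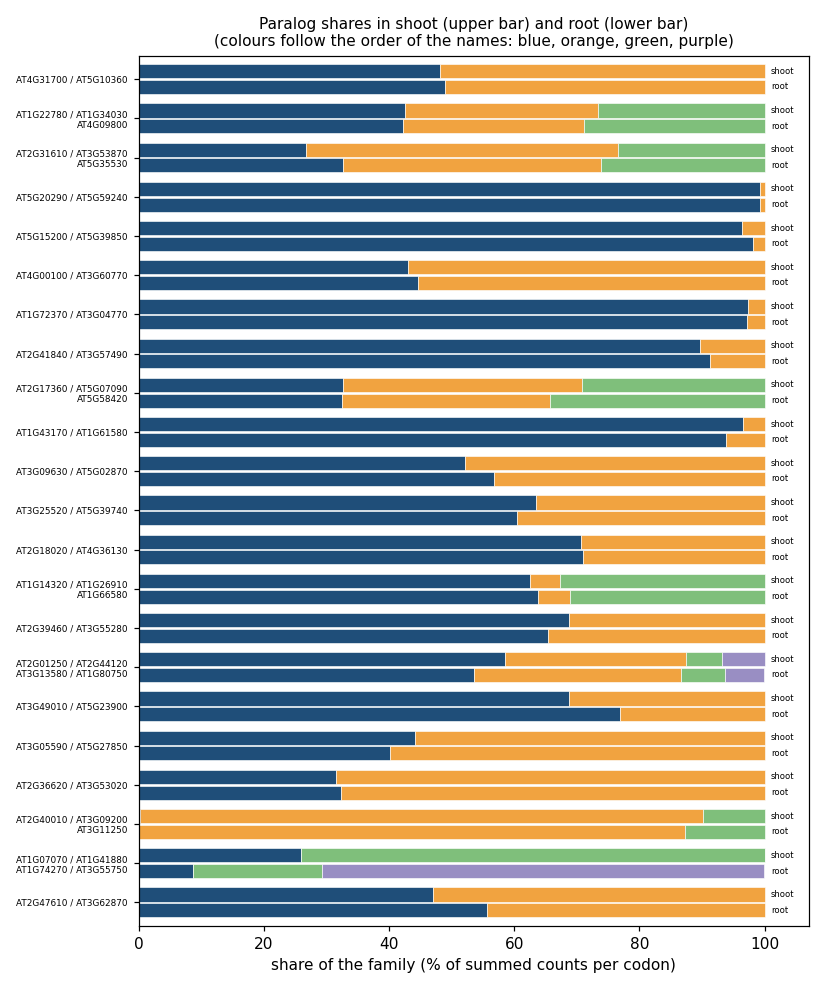
Share of each paralog in its family's summed counts per codon, in percent, without 1 family that is not shown, with shoot as the upper and root as the lower bar of each family; colours follow the order of the locus names. The upper and lower bars nearly match in most families, and the family of AT1G74270 and AT3G55750 differs because AT3G55750 is listed in root only.

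In the 21 families with every listed member in both tissues, the log2 ratio of the summed counts ran from -0.21 to 0.29 with an SD of 0.14 over families. The difference in log2 ratio between 2 paralogs listed in both tissues had a median of 0.21 and a maximum of 0.97 over 36 pairs. By these values no pair differed by 2-fold. The pair at the maximum, AT5G15200 and AT5G39850, lay near that limit, and no counting interval was computed for the difference. Both ends of the range of ratios, RPL3B and AT5G39850, made up under 10% of their family in both tissues, as did 5 other members with ratios of -0.34 to 0.12.

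Summed over paralogs, those 21 families had a median of 489 counts per codon in shoot and 557 in root. The sum ran from 251 to 645 in shoot, a 2.57-fold range, and from 295 to 762 in root, a 2.58-fold range. Over all 23 families, the sum ran from 87.9 to 645 in shoot, a 7.34-fold range, and from 295 to 762 in root. The low end in shoot was the family of AT1G74270, without AT3G55750, followed by that of AT3G09200 with 234. Within the 21 families, the lowest sum in each tissue was that of AT2G41840 and AT3G57490, and 2 further loci held to be of that family had no listed ORF in either set. The families of EMB2296, BBC1 and RPL18 also had a further locus without a listed ORF. Of these, the RPL18 pair had the highest sum of all families in shoot, 645.

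Members were not all listed in both sets. AT3G55750 stood in root only, as did 11.4% of all genes, and AT2G40010 in shoot only, as did 8.30%. AT1G41880 was listed in neither. The sets hold only ORFs that were called, so a missing gene was not shown to be untranslated, and no fold was computed for it.

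AT3G55750, on chromosome 3 from 20698642 to 20699552 with 4 exon blocks and 111 codons, had 29048 counts in root (28715 to 29384), or 262 per codon. It made up 70.6% of its family there (70.2 to 71.1). The other 2 listed paralogs were AT1G74270, with 7283 counts in shoot and 8602 in root, and AT1G07070, with 2558 in shoot and 3596 in root. Their log2 ratios were 0.01 (-0.04 to 0.05) and -0.24 (-0.32 to -0.17). With no ORF of AT3G55750 in the shoot set, AT1G74270 made up 74.0% of the family in shoot, against 20.7% in root, and the family sum was 87.9 counts per codon in shoot against 371 in root. Over the 2 paralogs listed in both tissues, AT1G74270 made up 74.0% in shoot (73.1 to 74.9) and 70.5% in root (69.7 to 71.3). The family's shift of 70.6 points then became 3.49, and no family reached 10 points.

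AT2G40010, on chromosome 2 from 16708581 to 16710447, had 219 counts in shoot (191 to 250), or 0.691 per codon, the lowest level of any member. It was 0.295% of its family. AT3G09200 carried that family, with 67276 counts in shoot and 89157 in root. AT3G11250, the third paralog, had 7440 in shoot and 13049 in root, and its log2 ratio of -0.56 (-0.60 to -0.52) was the second lowest of all members.

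Several members also had shorter ORFs from their transcripts, with codons that overlap those of the longest ORF. There were 20 of these in 17 genes, 19 of them in both tissues. The share of the gene's largest count that fell in the shorter ORF differed between shoot and root by under 2 percentage points in 14 of the 19. In RPL3A an inner ORF of 306 of the 389 codons held 72.5% of the count in shoot (72.3 to 72.8) and 78.5% in root (78.3 to 78.7). In RPS6B one of 197 of the 249 codons held 75.8% in shoot (75.4 to 76.1) and 79.6% in root (79.3 to 79.9). In BBC1 one of 153 of the 206 codons held 62.0% in shoot (61.6 to 62.4) and 65.5% in root (65.1 to 65.8). The spread of footprints along these 3 ORFs was thus not identical in the 2 sets, with fewer in the inner part in shoot. Going the other way, a shorter ORF of AT5G15200, whose blocks are not all inside the longest one, had 64505 counts in shoot and 72829 in root, equal to 69.5% and 63.6% of the largest count.

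How footprints that match more than 1 paralog were assigned is not stated in the labels or the tables. Counts of paralogs that share sequence are uncertain to that extent.

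The other genes of the pathway were taken from a list of 172 further loci held to encode cytosolic ribosomal proteins, of which the table of names marks 21 as ribosomal. Whether each of them, rps15ab and rps15ae included, serves the cytosolic ribosome rather than that of an organelle was not checked. ORFs were listed for 147 of them, 146 in both tissues. Their log2 ratios had a median of -0.02 over 145 genes with a ratio, and -0.01 over the 21 that the table names. Of the 145, 4 passed the 2-fold limit towards shoot and 3 towards root, against 14.8% and 24.1% of all genes. The 5 lowest were AT1G23410 (log2 ratio -1.54), AT4G34555 (-1.25), rps15ae (AT4G29430, -1.02), rps15ab (AT2G19720, -0.89) and AT3G10090 (-0.75). The 5 highest were AT1G15250 (1.22), AT4G13170 (1.09), AT2G32220 (1.06), AT2G37600 (1.01) and AT5G02610 (0.69). Members and these loci together held 6.55% of the shoot total and 6.54% of the root total.

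Nuclear genes for proteins of the plastid ribosome stood far from the cytosolic ones. Of the 32 loci listed, 30 had ORFs in both tissues, and those without an identical coding ORF had no ratio. All 28 with a ratio passed the 2-fold limit towards shoot, as did 14.8% of 11610 genes. Their median was 4.02 on the log2 scale, between extremes of 3.57 and 4.80, against 0.01 for the 52 members. The 2 lowest were RPS1 (AT5G30510), 11.9-fold higher in shoot, and RPL27 (AT5G40950), 12.5-fold. The 2 highest were emb2394 (AT1G05190), 27.9-fold, and RPL15 (AT3G25920), 22.5-fold. The lists did not overlap in ratio, the highest member being AT5G39850 at 0.91. Of all genes with a ratio, 96.5% lay at or below 3.5. The plastid list of 32 loci held 1.04% of the shoot total and 0.0624% of the root total.

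**Figure D4:**
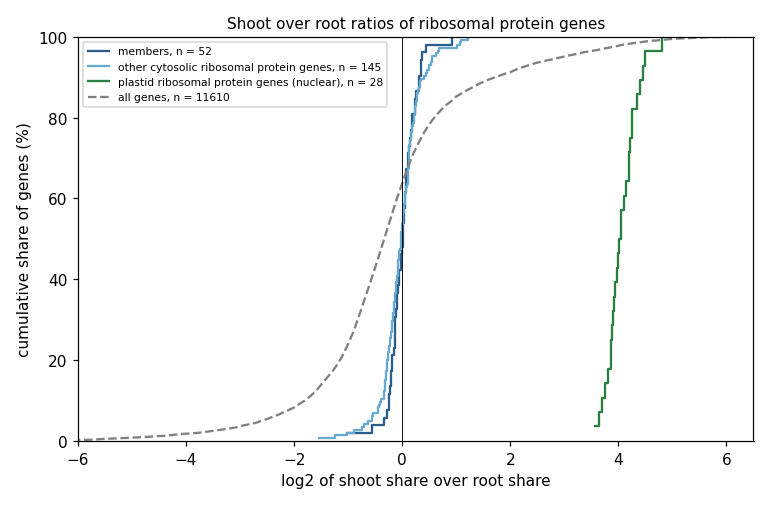
Cumulative share of genes (%) against the log2 ratio of shoot share over root share, for the 52 members, the 145 other cytosolic ribosomal protein genes, the 28 plastid ribosomal protein genes and all 11610 genes. Both cytosolic curves climb steeply at 0, the curve of all genes is far flatter, and the plastid curve starts at 3.57.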

How the data were processed

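The authors deposited 1 table of translated ORFs per tissue, with a whole-number count per ORF, repeated on each exon block and not scaled by length or depth. The unit was read from the values. The submitters' processing notes list Bowtie2, STAR 2.5.1b and the TAIR10 build. For the ORF caller and the combining of replicates, no method is given in the sources used here.

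Rows with the same name were joined into 1 ORF, with codons from the positions in its name. Starts are 1-based, and outer ends are uncertain by 1 base. The ORF with the largest count stood for a gene in levels and shares. Each ratio is the log2 of a gene's shoot share over its root share, with a pseudocount of 0.5 and the longest coding ORF identical in both tissues. Genes under 100 counts in both tissues were left out. Sizes counted were 2-fold and a share shift of 10 percentage points. Intervals are 95% exact Poisson (counts) or Clopper-Pearson (shares, and ratios of 2 counts). In families they hold the proportions of the other paralogs fixed. Reads lacking molecular identifiers need not be separate molecules.

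Members may all be named. Families with the 6 largest shifts, members with the 5 highest and 5 lowest ratios and those in 1 tissue get full values. Up to 5 of the other cytosolic and 2 of the plastid genes were named at each end. Members, lists and limits were chosen with earlier results of these data known. All 272 listed loci matched the RefSeq name table (TAIR10.1). Of those listed as further cytosolic ribosomal protein genes, 1 that the table names as a kinase was dropped on that name alone. Whether this locus encodes a ribosomal protein was not checked, and the 172 further loci leave it out. The values of 1 family enter the summaries and are not reported here. The planned comparison of protein identity and promoter motifs was not made. The ratio step was tested on simulated counts. The work ran in Python 3.11.15 with scipy 1.17.1, pandas 2.3.3 and numpy 2.4.6, and plots were drawn with matplotlib 3.10.9.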

Additional observations from a re-analysis of the deposited data

How the results depend on the processing

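The largest ORF of each gene, a pseudocount of 5 and no count filter left all 52 member ratios within counting error, and the plastid median stayed 4.02. For the members this outcome was fixed in advance. Their identical ORF was also their largest, and their counts, from 561 up, passed the filter and were large beside the pseudocount. Scaling on the median ratio of all genes gave medians of 0.34 for members, 0.31 for the other cytosolic genes and 4.36 for plastid genes. The count of members at least 2-fold higher then became 1 in shoot (AT5G39850) and 0 in root, so RPL3B was no longer counted. Sums over nuclear genes only gave medians of 0.05, 0.02 and 4.06, so that the sign of the other cytosolic median turned, and 0 members at least 2-fold higher in root. These moves follow from the scaling, which shifts every gene alike. The number of families with a shift of at least 10 points was 1 with raw counts or summed ORFs that do not overlap. It was 0 with identical ORFs, and 0 with members listed in both tissues only, an alternative chosen after seeing the data, since both leave out AT3G55750. All 52 members stayed listed in both tissues with ORF counts of at least 100 and with coding ORFs only. Neither setting could remove a member, as every member ORF was coding and their largest counts all exceeded 100. No paired analysis was possible because each tissue has 1 value per ORF, and leaving out replicates was not run for the same reason. Depth limits AT2G40010 and AT5G59240 most.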
